A study of Mus musculus with 15 samples.

Results

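The genes described here are 89 mouse genes for cytochrome P450 enzymes, glutathione S-transferases (GST) and aldehyde dehydrogenases (ALDH), out of 18193 genes measured. They were taken by gene symbol from the array's annotation: Cyp families 1 to 4 (53 genes), the GST classes alpha, mu, pi, theta, kappa and omega (18 genes), and numbered Aldh genes (18 genes). Cyp2f2, Gsta4 and Aldh1a7 were left out by the rule, and 6 further symbols, among them Cyp2a5, were read only by probe sets shared with another gene and were not used. Expression was measured on 15 Affymetrix arrays of cells cut by laser from frozen lung sections of mice with a knock-in K-RasG12V allele, an oncogene in the resident K-Ras gene that also carries a colour marker for the cells expressing it. All arrays, those of normal cells included, came from lungs infected in vivo with adeno-CRE, a virus that delivers the recombinase, 3 months earlier. There were 8 arrays of normal lung cells, and 3 arrays of H1 and 4 arrays of H2, the subtype names given to hyperplastic lesions of about 500 cells each, with the normal cells cut from the same sections as lesions. The sources used here do not give the basis of the H1 and H2 names, the age of the mice or which samples came from 1 animal. The p-values therefore rest on the spread over captured regions, and are too small wherever a group holds several regions of 1 mouse. All values are log2 signals per probe set, ± after a difference is its standard error (SE), and a gene was called at a limma adjusted p under 0.05 over all 18193 genes.

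P450 enzymes insert oxygen into drugs, toxins, fatty acids and steroids, often the first step by which foreign compounds are cleared, and sometimes the step that makes them reactive. GST enzymes join glutathione to such reactive products, and ALDH enzymes oxidise aldehydes, among them retinaldehyde, to acids. In lung these activities are best known from club cells of the airway and from alveolar epithelium and vessels. Transcription of the genes can respond to the aryl hydrocarbon receptor, which binds a GCGTG core, and to NRF2, which binds antioxidant response elements.

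The promoters of 4 genes are shown with 250 bases before the start site. They are those of the 2 genes called in H2 (Cyp4b1 and Cyp3a44) and of Aldh1a1 and Cyp2b10. Over the normal arrays Aldh1a1 and Cyp2b10, like Cyp4b1, rose with the spread of values within the array. The choice was made after their values were seen. The sequences are RefSeq's for GRCm38.p6: chr4:115647722-115647971 (minus strand) for Cyp4b1, chr19:20492333-20492582 (plus strand) for Aldh1a1, chr7:25897408-25897657 (plus strand) for Cyp2b10 and chr5:145805875-145806124 (minus strand) for Cyp3a44, each written 5′ to 3′ along its gene. Capitals mark matches on either strand to any of 4 motifs. The first is GCGTG, the core of the sites that the aryl hydrocarbon receptor binds. The second is TGACNNNGC, the core of the antioxidant response element. The third is TGANTCA, the site of AP-1 factors such as Fos and Jun. The last is TATAAA, the TATA box near which transcription can start.
Cyp4b1: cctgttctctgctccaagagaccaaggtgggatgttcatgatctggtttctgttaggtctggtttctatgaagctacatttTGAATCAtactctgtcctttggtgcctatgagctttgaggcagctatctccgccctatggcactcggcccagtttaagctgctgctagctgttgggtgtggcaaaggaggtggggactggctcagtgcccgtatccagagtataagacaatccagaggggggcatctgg
Aldh1a1: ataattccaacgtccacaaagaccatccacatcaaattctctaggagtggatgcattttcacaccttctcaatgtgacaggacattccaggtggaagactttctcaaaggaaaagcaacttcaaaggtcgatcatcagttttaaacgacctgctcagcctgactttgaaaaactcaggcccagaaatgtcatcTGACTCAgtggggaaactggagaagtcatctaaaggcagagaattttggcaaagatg
Cyp2b10: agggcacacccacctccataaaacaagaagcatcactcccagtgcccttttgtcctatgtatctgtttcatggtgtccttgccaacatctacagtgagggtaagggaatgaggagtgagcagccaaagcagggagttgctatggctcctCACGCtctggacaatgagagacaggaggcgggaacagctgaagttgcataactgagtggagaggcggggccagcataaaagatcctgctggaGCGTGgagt
Cyp3a44: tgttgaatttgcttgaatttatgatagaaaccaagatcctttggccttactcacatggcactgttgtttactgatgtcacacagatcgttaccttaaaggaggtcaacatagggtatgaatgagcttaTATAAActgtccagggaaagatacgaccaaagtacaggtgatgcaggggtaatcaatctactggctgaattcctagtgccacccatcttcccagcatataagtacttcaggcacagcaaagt
The Cyp4b1 and Aldh1a1 windows each held 1 match to the AP-1 site, from base 169 and from base 57 before the start, and none to the other 3 motifs. Aldh1a1 had 2 windows listed, of which the first is shown and the other is not described here. The Cyp2b10 window held 2 GCGTG cores, 1 on each strand, from bases 101 and 9 before the start. The Cyp3a44 window held 1 TATAAA, from base 122 before the start. Of the 89 genes, 72 had a window in the table. GCGTG was in 20 of these 72 (27.8%) and in 28.2% of the windows of all 27025 genes, TGACNNNGC in 5 (6.94%) and 10.1%, and TGANTCA in 6 (8.33%) and 6.87%. One of the 72 windows, that of Gstm5, held both TGACNNNGC and TGANTCA, letters that can overlap, as did 220 windows of all genes. TATAAA was in 19 of the 72 windows (26.4%) against 12.97% of all windows, and by family in 17 of 42 P450, 2 of 17 GST and 0 of 13 ALDH windows. A match describes letters in this window, not a bound site.

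Most of the 89 genes gave low signals. The mean over all arrays lay above 3.99, the median of all probe set means, for 38 of them (42.7%), against 63.6% of all genes, and by family for 17 of 53 P450, 9 of 18 GST and 12 of 18 ALDH genes. Sizes of change for the other 51, which lie nearer to the background, are not well determined. A group mean above 6 was reached by 6 genes: Aldh1a1, Cyp4b1, Cyp4v3, Cyp2c29, Aldh9a1 and Gsta3. The arrays also differed in the spread of their values, measured as the standard deviation (SD) of the log2 values within an array, with a mean of 1.64 ± 0.12 (SD, n = 4) for H2, 1.42 ± 0.10 (n = 3) for H1 and 1.38 ± 0.18 (n = 8) for normal cells. Permutation tests (exact, 2-sided) gave p-values, adjusted over 3 comparisons, of 0.0667 for H2 against normal, 0.0857 for H1 against H2 and 0.752 for H1 against normal. Over genes above the median alone the difference between H2 and normal was 0.29 (exact permutation adjusted p = 0.0429) and that between H1 and H2 was -0.26 (0.0429).

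The H2 arrays were set against the normal arrays to see which of these enzymes differ in that lesion subtype. Cyp4b1, a P450 that is abundant in lung and hydroxylates fatty acids and activates some lung toxins, fell by 3.36 on the log2 scale, and Cyp3a44, of a subfamily best known from liver, fell by 1.01. The H2 means (3.76 and 4.05) lay below and near the 3.99 median of all probe sets, so the calls give a direction and the sizes are not well determined. These were the 2 of 89 genes called lower (2.25%, against 0.495% of all genes), and none was called higher (0, against 2.89% of all genes, limma). Before adjustment, 15 of the 89 had p under 0.05 and were lower (16.9%, against 8.7% of all genes) and 4 were higher (4.49%, against 12.7% of all genes). The 10 P450, 2 GST and 3 ALDH genes among the 15 included members of the Cyp2b, Cyp2c, Cyp2j and Cyp2g subfamilies.

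Cyp4b1 lay at 4.82, 5.57, 6.61, 7.03, 7.54, 7.85, 8.57 and 8.96 on the normal arrays, and at 2.41, 3.32, 4.22 and 5.11 on the H2 arrays. All H2 arrays but 1 lay below every normal array, so the groups overlapped through a single H2 array and the lowest normal array. The means were 7.12 ± 1.42 (SD, n = 8) and 3.76 ± 1.16 (n = 4), a difference of -3.36 ± 0.71 (limma adjusted p = 0.0217). The call was lost without H2 replicate 6 (-3.21, limma adjusted p = 0.0747) or replicate 7 (-2.90, adjusted p = 0.0923). With the replicate number as a block the difference was -3.98 (adjusted p = 0.101).

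Cyp3a44 lay between 4.42 and 5.63 (median 5.07) on the normal arrays and at 3.76, 4.08, 4.18 and 4.19 on the H2 arrays. The groups did not overlap. The difference was -1.01 ± 0.22 (limma adjusted p = 0.0249). It missed the threshold without any 1 of H2 replicates 1, 5, 6 and 7 (limma adjusted p from 0.0507 to 0.0806), with quantile normalization repeated (0.069), with the replicate number as a block (0.0699) and with array spread in the model (0.114). Cyp3a44 (named by its call) has close copies in the Cyp3a subfamily, which a short probe may not tell apart. Of its 4 measured relatives, named here outside the rule on named genes, Cyp3a11 differed by -0.70, Cyp3a25 by -0.28, Cyp3a16 by -0.15 and Cyp3a13 by 0.18, none of them called.

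**Figure D1:**
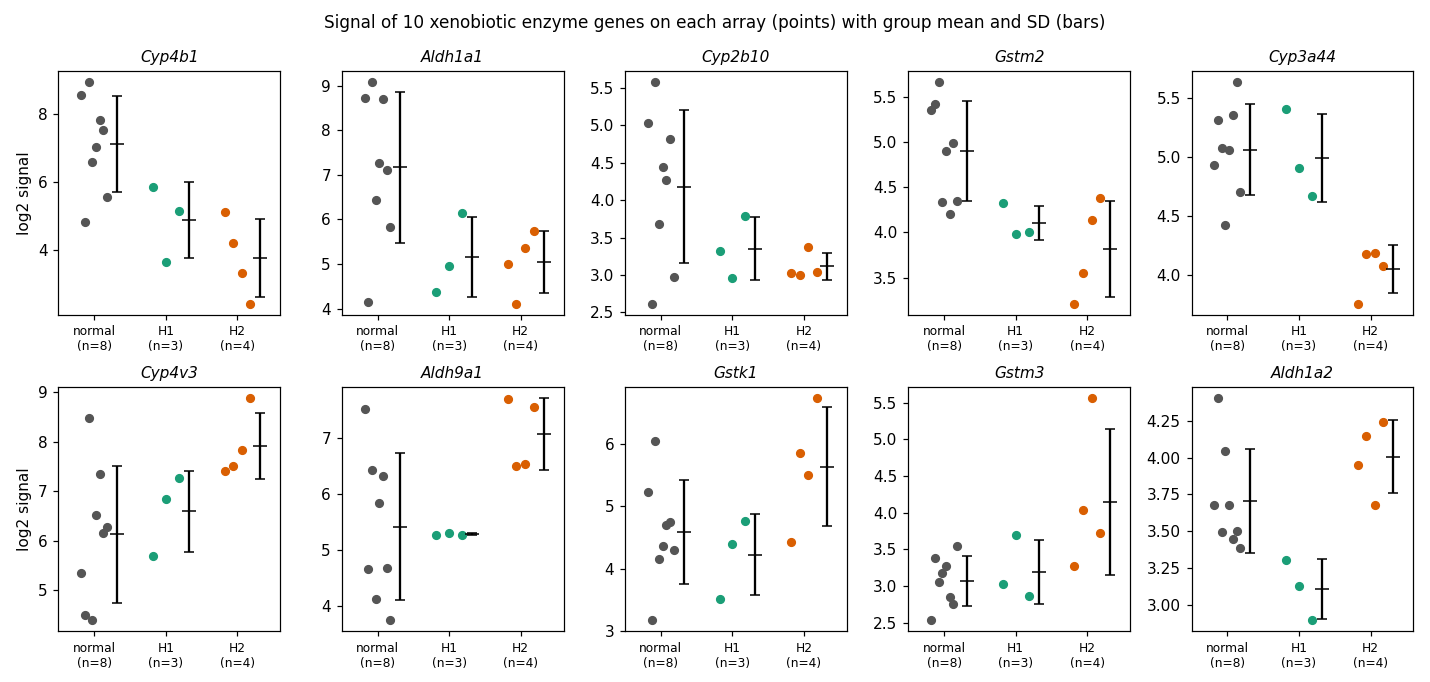
Log2 signal of 10 genes on each array (points, by group on the x axis), with the group mean and SD as bars. Cyp4b1 lies at 4.82 to 8.96 in normal cells and at 2.41 to 5.11 in H2, the H2 arrays of Cyp3a44 all lie below the normal arrays, and the H1 arrays of Aldh1a2 all lie below both other groups.

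Aldh1a1, which makes retinoic acid from retinaldehyde, had a pattern like that of Cyp4b1 without being called. Its signal was 4.15, 5.84, 6.44, 7.12, 7.26, 8.69, 8.73 and 9.09 on the normal arrays, 4.11, 4.99, 5.36 and 5.74 in H2, and 4.37, 4.95 and 6.15 in H1. Normal replicate 2 lay among the lesions, and the other 7 normal arrays lay above all 4 H2 arrays. The difference between H2 and normal was -2.11 ± 0.75 (limma adjusted p = 0.124). Without normal replicate 2 it was -2.54 (limma adjusted p = 0.0364). Cyp2b10, the phenobarbital-inducible P450 regulated by the nuclear receptor CAR, lay at 2.62, 2.98, 3.67, 4.26, 4.45, 4.82, 5.04 and 5.58 in normal cells and at 3.00, 3.03, 3.04 and 3.38 in H2. Its H2 values lay within the low end of the normal range. The difference was -1.06 ± 0.45 (adjusted p = 0.186), and its other 2 probe sets differed by -1.31 and -0.97.

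The differences of these 3 genes were larger once the spread of the arrays was in the model, and H2 had the highest mean spread. H2 replicates 6 and 7 (spread 1.70 and 1.78) lay beyond the widest normal array (1.67). There the covariate fit goes past the spread of every normal array. That fit also takes the change with spread to be the same in all groups. In normal cells Cyp4b1 rose with array spread, but over the H2 arrays it fell as spread rose. In H2 Aldh1a1 was highest on replicate 7 and Cyp2b10 on replicate 6. With array spread as a covariate, Aldh1a1 fell in H2 by 4.27 ± 0.41 (limma adjusted p = 0.000124), Cyp4b1 by 4.44 ± 0.80 (0.0149) and Cyp2b10 by 2.15 ± 0.37 (0.0122). Without normal replicates 2 and 8, whose spread was the narrowest among normal arrays (an alternative added once the data had been seen), the differences were -2.84, -3.996 and -1.52 (limma adjusted p = 0.0208, 0.00747 and 0.0275). All 3 genes rose with array spread in normal cells, so this left out low normal values (Aldh1a1 at 4.15 and 5.84). Larger differences there follow from the choice of arrays and are not a separate result. Of the 89 genes, 3 were called lower and 0 higher in H2 with the spread covariate, where all genes gave 57 higher and 98 lower, against 525 and 90 without it.

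Within the 8 normal arrays the signal of several of these genes followed the spread of the array. Aldh1a1 had Pearson r = 0.954 (exact permutation p = 2.5e-05, the smallest that orders of 8 arrays can give, adjusted p = 0.00067) and Spearman rho = 1.00 (exact p = 5e-05, adjusted p = 0.00134). For Cyp4b1 r was 0.959 (exact permutation adjusted p = 0.00469) and rho 0.976 (adjusted p = 0.00536). Without normal replicates 1 and 3, the 2 farthest from the median spread, r was 0.966 for Aldh1a1 and 0.931 for Cyp4b1. In a family of 27 named genes, Gstm1, Gstp1, Gstk1 and Cyp2b10 also passed for both r (0.918, 0.913, 0.918 and 0.885) and rho (exact permutation adjusted p = 0.0176 each for rho). Some of the 27, Aldh1a1 and Cyp4b1 among them, were named for a large SD over these same arrays, a choice the adjustment does not cover. Gstt1 (0.881) and Cyp2c29 (-0.864) passed for r and not for rho, and Aldh9a1 for rho (0.905) and not for r (0.808, adjusted p = 0.0533). Of the 89 genes 5 had r above 0.9 (5.62%), against 3.84% of all genes and 5.80% of genes above the median signal, with medians of r of -0.39, 0.08 and 0.29. The spread reflects each whole array, so these values share its signal range. Control probe sets at the 3′ and 5′ ends of a transcript, a sign of RNA quality, also differed between arrays. The 3′ minus 5′ signal of Actb ran from -1.60 to -0.03 in normal cells, with the lowest value on normal replicate 2, the array of narrowest spread, from -1.21 to -0.04 in H1 and from -0.29 to 0.25 in H2. That of Gapdh ran from 1.55 to 3.25, from 2.26 to 2.94 and from 2.66 to 4.58 in the same order. Their part in the differences was not tested.

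**Figure D2:**
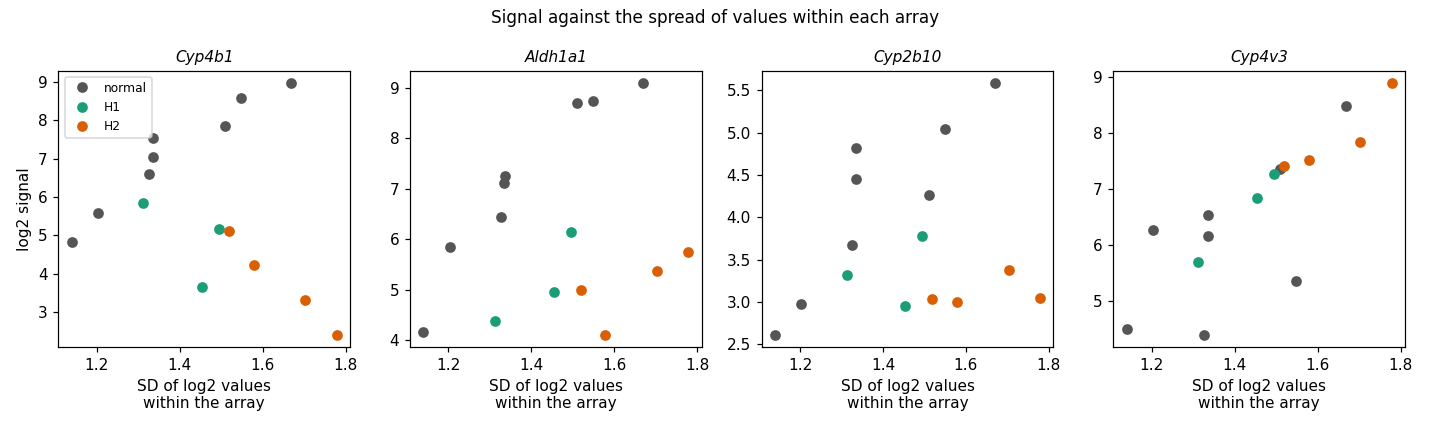
Log2 signal of 4 genes (y axis) against the SD of log2 values within each array (x axis), 1 point per array, coloured by group. In normal cells Cyp4b1 and Aldh1a1 increase with the spread (r = 0.959 and 0.954), and their H2 values lie far below the normal arrays of wide spread. Within H2, Cyp4b1 decreases as the spread increases. Cyp4v3 in H2 lies near the normal arrays of wide spread. H2 replicates 6 and 7 (SD 1.70 and 1.78) lie beyond the widest normal array (1.67).

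On the higher side in H2 were 4 genes at an unadjusted p under 0.05, none called. Cyp4v3, a fatty acid hydroxylase, was at 7.41, 7.52, 7.83 and 8.88 in H2 and between 4.40 and 8.48 (median 6.22) in normal cells, a difference of 1.78 ± 0.63 (limma adjusted p = 0.125). Aldh9a1, which acts in carnitine synthesis, was at 6.49, 6.52, 7.55 and 7.68 against 3.75 to 7.51 (median 5.25), a difference of 1.65 ± 0.58 (0.118). In both genes the upper normal arrays reached into the H2 range. Gstk1, the GST of mitochondria and peroxisomes, differed by 1.05 ± 0.47 (limma adjusted p = 0.212), and Gstm3, of the mu class, by 1.08 ± 0.34 (0.0871). With array spread in the model the differences were 0.38 for Cyp4v3, 0.44 for Aldh9a1 and -0.21 for Gstk1, so that Gstk1 turned direction. Gstm3 kept 1.20 there, but its probe set is of the kind that matches several transcripts, and its other probe set differed by -0.04. The second probe set of Aldh9a1 differed by 0.45 and that of Cyp4v3 by 0.88.

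By family, the count of lower genes in H2 differed with and without array spread in the model. H2 arrays had the wider spread, so a part due to spread and a part due to the lesions cannot be told apart in this shift. Of 53 P450 genes 39 were lower (73.6%), with a median of -0.19, but with array spread in the model 26 were lower and 27 higher, with a median of 0.02. Without the covariate, 53.7% of all genes were lower, with a median of -0.04. Among all genes at or below the median signal, where 36 of the 53 P450 genes lie, 65.3% were lower with a median of -0.12. All 5 Cyp2j genes were lower without the covariate (median -0.36) and with it (-0.44), where 0 had an unadjusted limma p under 0.05. A second Cyp2j6 probe set of like level (3.10 against 3.13) went the other way, at 0.45 against -0.75 without the covariate. All 4 Cyp2b genes were lower without it (median -0.68) and 2 of 4 with it (0.01), and of 34 Cyp2 genes 26 were lower without it and 21 with it. Of 18 GST genes 8 were lower without the covariate (median 0.12) and 11 with it (-0.08), and of 18 ALDH genes 11 without it (-0.09) and 9 with it (0.07). In all, 30 of the 89 genes turned direction in H2 with array spread in the model, against 1 in H1. These counts carry no test.

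**Figure D3:**
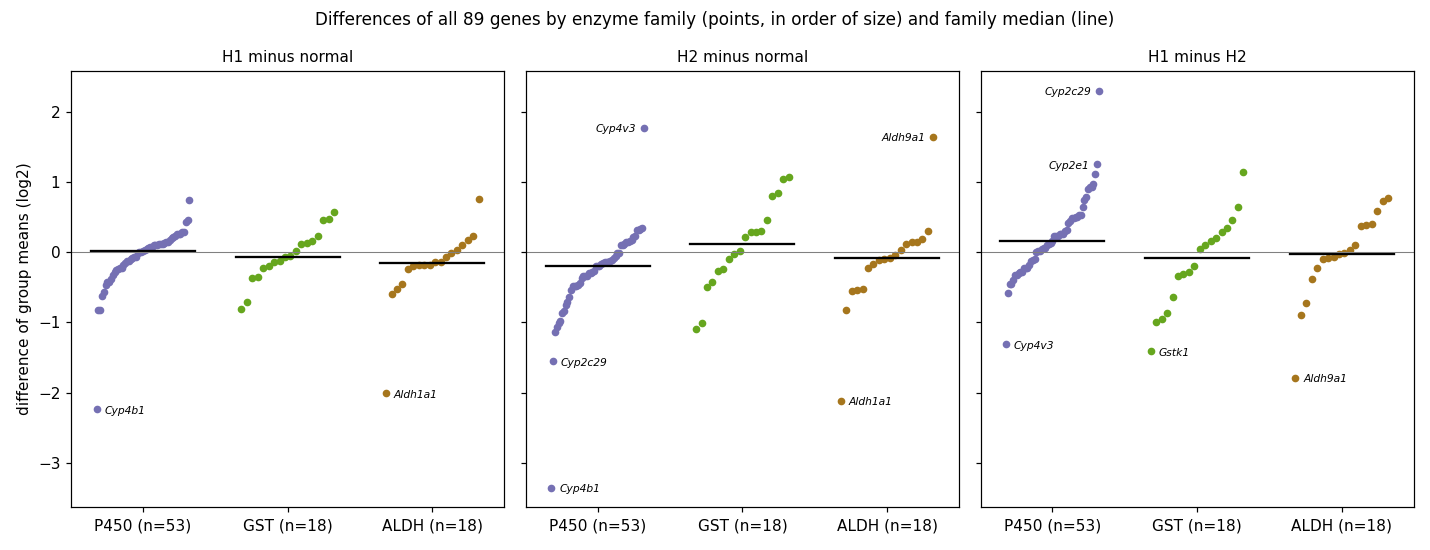
Differences of group means (log2, y axis) of all 89 genes by family, in order of size, with the family median as a line, for H1 minus normal, H2 minus normal and H1 minus H2. Most genes lie within 1 of zero, and Cyp4b1 at -3.36 and Aldh1a1 at -2.11 are the lowest points in H2.

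Among the GST genes, Gstm2 (mu class) was nearest to a call. It lay between 4.21 and 5.67 (median 4.95) in normal cells, at 3.21, 3.55, 4.13 and 4.38 in H2 and at 3.98, 4.00 and 4.32 in H1. Both lesion groups overlapped the lower end of the normal arrays through 1 array each. The differences were -1.09 ± 0.30 in H2 (limma adjusted p = 0.0592) and -0.80 ± 0.33 in H1 (0.997). Gstm1, the main mu-class enzyme of many tissues, differed by 0.30 ± 0.60 in H2 and -0.70 ± 0.66 in H1, with normal arrays from 3.57 to 6.77. With array spread in the model its difference in H2 was -1.31 ± 0.41 (limma adjusted p = 0.151) and that in H1 was -0.93 ± 0.35 (0.481). Gsta3 (alpha class) differed by 0.80 ± 0.41, Gstp1 (pi class) by 0.85 ± 0.44, Gstt1 (theta class) by 0.30 ± 0.45 and Gsto1 (omega class) by 0.30 ± 0.41 in H2, none past the threshold. The spread covariate gave -0.03, -0.18, -0.73 and 0.52, so that Gsta3, Gstp1 and Gstt1, like Gstm1, turned direction. Gsta2, named outside the rule, was at 4.65 ± 0.64 (SD, n = 4) in H2 and 5.66 ± 0.92 (n = 8) in normal cells (limma adjusted p = 0.192), a difference of -1.01 that was -0.04 with array spread in the model. GST genes of a class share much sequence, and the Gsto1 and Gstm1 probe sets are of the kind that can cross-hybridise. The other Gsto1 probe set, not of that kind, differed in the other direction in H2, by -0.35.

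The remaining textbook members were not called in any comparison. Cyp1a1, the textbook target of the aryl hydrocarbon receptor, lay below 3.99 on all 15 arrays (2.24 to 3.60) and differed by 0.11 ± 0.25 in H2 and 0.27 ± 0.27 in H1. Cyp1b1 differed by -0.30 and 0.20, and Cyp2s1 by -0.13 and -0.42 in the same order. The H2 differences of Cyp1a1, Cyp1b1 and Cyp2s1 with the spread covariate were 0.59, 0.25 and 0.17, the last 2 in the other direction. Aldh1a3, which like Aldh1a1 makes retinoic acid, differed by -0.09 ± 0.24 in H2, although 1 of its 3 probe sets differed by 0.94. Aldh18a1, of proline synthesis, differed by -0.17 ± 0.23 on a probe set of the kind that can cross-hybridise. Its other probe sets, all of lower signal, went the other way, at 0.22, 0.02, 0.25 and 0.63. Aldh1a3 and Aldh18a1 also turned direction with array spread in the model, to 0.13 and 0.14. Aldh3a1, which clears lipid aldehydes, was at 2.94 ± 0.51 (SD, n = 4) in H2 and 3.50 ± 0.28 (n = 8) in normal cells (limma adjusted p = 0.171), a difference of -0.55 that was -0.21 with array spread in the model.

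H1 lesions were compared with normal cells for the first subtype. Of the 89 genes 0 were called higher and 0 lower, where all genes gave 0.011% higher and 0% lower (limma). Before adjustment, 6 had p under 0.05 and were lower (6.74%, against 2.39% of all genes), and 0 were higher (against 1.85%). The 6 were Cyp4b1, Aldh1a1, Gstm2, Aldh1a2, Cyp2d40 and Cyp2c50. Cyp4b1 lay at 3.64, 5.16 and 5.85 in H1, a difference of -2.23 ± 0.79, or 4.70-fold lower (limma adjusted p = 0.997). Of the 3 H1 arrays 2 lay inside the normal range. Aldh1a1 differed by -2.01 ± 0.83 (adjusted p = 0.997). With array spread in the model it fell by 2.31 ± 0.35 (limma adjusted p = 0.0112), the 1 member called in H1 under any alternative.

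Aldh1a2, the retinoic acid enzyme of mesenchyme and mesothelium, lay at 2.90, 3.12 and 3.30 in H1, from 3.38 to 4.41 (median 3.59) in normal cells, and at 3.68, 3.95, 4.15 and 4.25 in H2. The H1 arrays lay below all others. The difference from normal was -0.60 ± 0.23 (limma adjusted p = 0.997), with both means below 3.99. Cyp2c50 also did not overlap with normal cells (-0.62 ± 0.29). These 2 were the members that did not overlap (2.25%, against 1.4% of all genes). In H2 the 2 that did not overlap with normal (2.25%, against 3.79% of all genes) were Cyp3a44 and Cyp2c70. Cyp2d40 differed in H1 by -0.57 ± 0.23. By family, 24 of 53 P450 (median 0.03), 10 of 18 GST (-0.06) and 13 of 18 ALDH genes (-0.15) were lower in H1, where 56.5% of all genes were lower with a median of -0.05.

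The third comparison set the H1 arrays against the H2 arrays. Of the 89 genes 0 were called (limma), where all genes gave 0% higher in H1 and 0.0055% lower. Before adjustment, 6 had p under 0.05 and were higher in H1 (6.74%, against 4.9% of all genes) and 5 were lower (5.62%, against 7.41%). The groups did not overlap for 14 members (15.7%, against 18.2% of all genes). Cyp2c29, a liver-type P450 that oxidises arachidonic acid, had the largest difference, with 6.27, 6.33 and 6.44 in H1 against 3.50, 3.89, 4.20 and 4.55 in H2, or 2.31 ± 0.71 (limma adjusted p = 0.315). Its normal arrays spanned 3.34 to 6.94 and covered both. With array spread in the model the difference was 1.05. Aldh9a1, at 5.26, 5.27 and 5.30 in H1, differed by -1.79 ± 0.72 (limma adjusted p = 0.352), or -0.74 with array spread in the model. Cyp2c70, which makes muricholic bile acids in liver, differed by 0.93 ± 0.25 (0.286), Aldh1a2 by -0.90 ± 0.26 (0.299), Cyp3a44 by 0.94 ± 0.28 (0.3001) and the ethanol-inducible Cyp2e1 by 1.26 ± 0.44 (0.331). The spread covariate gave 0.71, -1.09, 0.94 and 0.78. Cyp2c70 and Cyp2e1 lay near the background in H2, at 2.90 and 3.06. For Cyp4b1 the difference between H1 and H2 was 1.12 ± 0.89 and for Aldh1a1 0.11 ± 0.94, so a difference between the subtypes was not detected for either. With array spread in the model these were 2.05 ± 0.88 (limma adjusted p = 0.659) and 1.96 ± 0.45 (0.450), larger than without it and not called. The comparisons of H1 and of H2 with normal share the normal arrays.

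The related genes were read from 5 lists. Of 16 conjugation and glutathione genes, 1 was called higher in H2 and 0 lower (median 0.05). Mgst1, a membrane-bound GST outside the symbol rule, lay at 7.98, 8.42, 8.70 and 8.83 in H2, above all normal arrays (4.31 to 6.91, median 5.91), and rose by 2.65 ± 0.43 (limma adjusted p = 0.00661), while in H1 it differed by 1.63 ± 0.48 (0.997). Gss, of glutathione synthesis, differed by 1.15 ± 0.36 in H2 (0.0841), and Gsr, glutathione reductase, by 1.66 ± 0.74 in H1 (0.997). Of 9 regulators, 1 was called higher (median -0.002). Nfe2l2, the gene of NRF2, lay at 7.19, 8.50, 8.52 and 9.15 in H2 and from 4.23 to 7.23 (median 5.30) in normal cells, and rose by 2.88 ± 0.60 (limma adjusted p = 0.0202).

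Of 8 export pumps, Abcc4, which exports conjugates, rose by 0.70 ± 0.17 in H2 (limma adjusted p = 0.0349), from 4.48 to 4.75 in normal cells to between 5.06 and 5.48, and 0 were called lower (median -0.08). Of 21 other phase I genes and redox partners, 1 was called lower and 0 higher (median 0.16). Fmo1, a flavin monooxygenase, fell by 1.75 ± 0.42, to between 2.90 and 3.76 from between 3.78 and 6.28 (limma adjusted p = 0.0357). Of 9 retinoid genes 7 were lower in H2 (77.8%, against 53.7% of all genes), with 1 called (median -0.29). Lrat, which stores retinol as esters, fell by 1.77 ± 0.44 (limma adjusted p = 0.0378), to between 2.88 and 3.93 from between 4.19 and 6.88. In H1 8 of the 9 retinoid genes were lower (88.9%, against 56.5% of all genes, median -0.20), none called. Of the 63 list genes 3 were called higher in H2 and 2 lower, where all genes gave 2.89% higher and 0.495% lower (limma). These calls come from the fit of 3 groups alone, and the alternatives were not read for the list genes. Over all genes, the count called higher in H2 went from 525 to 57 with array spread in the model. With the replicate number as a block it was 34. In H1, and in H1 against H2, 0 genes of the 5 lists were called by limma. Before adjustment, of the 63 list genes 13 had p under 0.05 and were higher in H2 (20.6%, against 12.7% of all genes) and 6 were lower (9.52%, against 8.7%). In H1 2 were higher (3.17%, against 1.85%) and 2 lower (3.17%, against 2.39%), and in H1 against H2 2 were higher (3.17%, against 4.9%) and 8 lower (12.7%, against 7.41%).

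**Figure D4:**
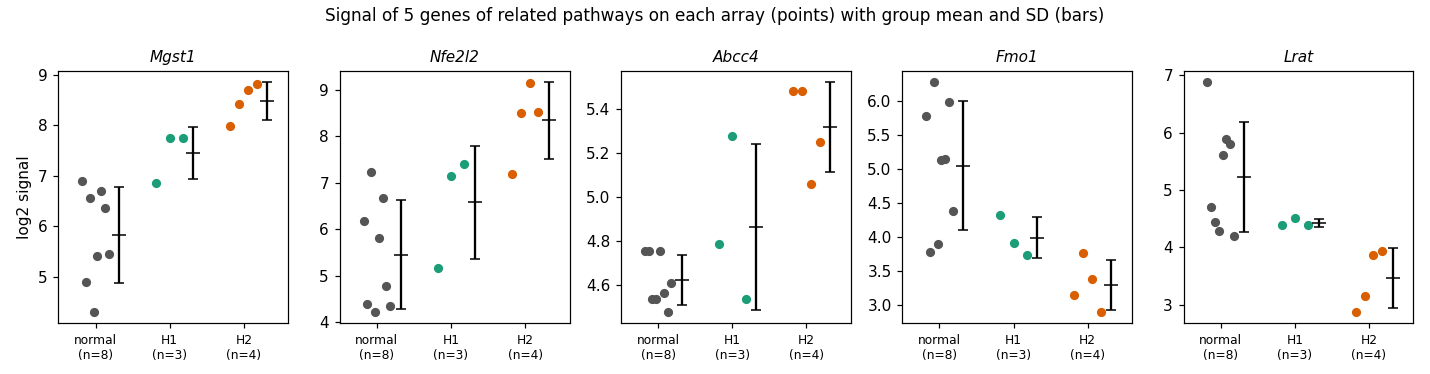
Log2 signal of 5 genes of related pathways on each array (points, by group on the x axis), with group mean and SD as bars. Mgst1 and Abcc4 in H2 lie above, and Fmo1 and Lrat in H2 below, every normal array, and the lowest H2 array of Nfe2l2 (7.19) lies just under the highest normal array (7.23).

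The captured tissue holds several cell types, and in such samples fewer cells of a type and less RNA per cell cannot be told apart. The mean signal of 10 endothelial markers lay between 4.29 and 6.41 in normal cells, 4.35 and 4.90 in H1, and 4.39 and 4.82 in H2, with 10 of 10 lower in H1 (median -0.73) and 8 of 10 lower in H2 (median -0.68), none called. That of 8 alveolar type 2 markers lay between 4.55 and 9.41, 7.38 and 8.91, and 8.16 and 9.58, with 8 of 8 higher in each subtype and 1 called in H2 (Abca3). The mean of 7 alveolar type 1 markers lay between 4.53 and 9.51 in normal cells, 6.19 and 7.35 in H1, and 7.06 and 7.66 in H2, with 6 of 7 lower in H1 (median -0.69) and 3 of 7 lower in H2 (median 0.03), none called. Club cell markers were low in every group (7 genes, array means from 3.37 to 3.92), with Scgb1a1, the defining one, at 3.36, 3.25 and 3.36 in normal cells, H1 and H2. Cyp2f2, also on that list, rose in H2 from 3.63 to 5.20 (limma adjusted p = 0.0308), while 5 of the 7 were lower there (median -0.17). Array means of the fibroblast list lay between 4.50 and 7.10 in normal cells, 5.64 and 5.87 in H1, and 6.05 and 6.56 in H2. Of its 7 genes 4 were higher in H2, with Col1a2 called, and 3 lower (median 0.03). In H1 3 were higher and 4 lower (median -0.26). Array means of the macrophage list lay between 3.99 and 5.75, 4.75 and 5.50, and 5.19 and 5.88 in the same order. Of its 8 genes 5 were higher in H1 (median 0.33) and 6 in H2 (median 0.60), none called. The ciliated, muscle and mesothelial lists stayed between 3.54 and 5.06 on all arrays. The marker calls come from the fit of 3 groups alone, and the alternatives were not read for them. The part of these markers in the differences of Cyp4b1, Aldh1a1, Cyp2b10 and the genes of the lists was not tested.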

How the data were processed

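RNA of 15 laser-captured samples was amplified with the WT-Ovation One-Direct system and hybridised to arrays, per the labels' protocols. The deposited log2 signals were made by the authors with affy and RMA, per the submitters' processing notes, with no version given. RMA evens probe intensities between arrays but not the spread of probe set values, so that spread was measured. Of 45101 probe sets, 64 controls were left out, 34945 had 1 gene symbol, 932 several and 9160 none in the annotation used. The highest-mean probe set stood for a gene. Differences were fitted with limma 3.58.1 in R 4.3.3 over all genes, with 3 groups and 1 shared spread, and adjusted by Benjamini-Hochberg. The fit was tested on simulated data. The number of arrays limits the precision.

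Named were members called in any comparison, the 6 of lowest p in each, the 5 most variable in normal cells and over all arrays, and a list of textbook members. Of the related lists, called genes and up to 2 of lowest p in each comparison qualified. Members, lists and rules were chosen with earlier results of these data known. Promoter windows are RefSeq's, taken as the first listed for each gene. Alternatives were leaving out each array, array spread as a covariate, fits on the compared arrays alone, a block for the replicate number, a trended robust prior, averaging a gene's probe sets, leaving out dim genes, quantile normalization applied again and centring of arrays. No 2 arrays were identical.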

Additional observations from a re-analysis of the deposited data

Results flagged for a closer look

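In 4 of 54 groups of values of the named members (7.41%, where chance gives about 5%), 1 array lay far from the others. Cyp2j5, a kidney-type P450, was at 7.57 on normal replicate 4, where the other normal arrays lay between 4.02 and 5.13, and at 6.05 on H2 replicate 6, where the other H2 arrays lay between 3.71 and 3.82. Cyp2b10 was at 3.38 on H2 replicate 6, with the others between 3.00 and 3.04. Cyp2c50 was at 3.62 on H2 replicate 1, with the others at 3.34.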

How the results depend on the processing

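Cyp4b1 kept its direction in H2 in all 24 alternatives and its call in 21, and Cyp3a44 its direction in 24 and its call in 17. Members called lower in H2 numbered 1 with quantile normalization repeated, 0 with the replicate block and 4 when the 2 narrowest normal arrays were left out. Leaving out 1 array gave 0 to 4 lower (4 without normal replicate 1 or 3, 1 without H2 replicate 5, 0 without H2 replicate 6 or 7) and 0 to 1 higher (1 without normal replicate 1, normal replicate 3 or H2 replicate 1). In H1, 1 member was called lower with array spread as a covariate. There 30 of the 89 members turned direction in H2, among them Gstk1 (from 1.05 to -0.21) and Gstm1 (from 0.30 to -1.31).

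Over all genes, H2 gave 140 higher and 46 lower with quantile normalization repeated, 34 and 5 with the replicate block, 57 higher with array spread, 39 lower with only the arrays compared, and 293 and 54 without the 2 narrowest normals, with 102 to 1104 higher and 16 to 274 lower when 1 array was left out. H1 gave 0 higher with the mean of probe sets or the replicate block, 15 higher and 6 lower with array spread and 1 higher with only the arrays compared (1 to 5 when 1 array was left out). H1 against H2 gave 0 lower in 6 alternatives and 2 lower without the 2 narrowest normal arrays (0 to 2 when 1 array was left out). The difference in array spread over brighter genes was 0.29 (H2 against normal) and -0.26 (H1 against H2), both past the threshold there. Causes were not tested beyond the construction of each alternative.

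The replicate numbers were not taken to pair the samples: of 7 lesions, same-number correlations of deviations ranged from -0.14 to 0.38, and 1 lesion correlated best with the normal array of its own number.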
